A study of Mus musculus with 28 samples.

Results

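The ABC transporters are the 50 genes, of 24391 symbols in the deposited count table, whose mouse symbol is Abc followed by a subfamily letter from a to g and a member number. Tap1, Tap2 and Cftr belong to the same protein family under other names and fall outside this choice. The libraries came from motor cortex of 14 mice, all of the genotype given in the labels as Cx3CR1-Cre/TRAPfl, in which Cre under the control of Cx3cr1 is used to switch on a floxed ribosome tag. Cx3cr1 is active in microglia and also in macrophages at the borders of the brain, so the tag need not be limited to microglia. The home cage controls carry both alleles too, so no group lacks the tag, and neither strain nor age is stated. Each mouse gave a TRAP library, made from mRNA that came down with tagged ribosomes (translating ribosome affinity purification), and a total lysate library of the same tissue. Home cage controls numbered 7, and the other 7 mice were put on a turning rod, the rotarod, for 1 h (run). Each condition had 4 females and 3 males by title, and 4 mice of cohort 1 and 3 of cohort 2. The labels call the cohort a batch.

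ABC transporters bind and hydrolyse ATP at a pair of conserved nucleotide-binding domains, and most use it to move lipids, drugs, peptides or metabolites across a membrane. In brain, export of cholesterol by subfamily A and G members loads apolipoprotein E particles, while P-glycoprotein and its relatives at the luminal face of endothelial cells pump drugs back into blood. Subfamily D works in peroxisomes and lysosomes, the sulfonylurea receptors of subfamily C are regulatory subunits of ATP-sensitive potassium channels, and subfamilies E and F lack membrane domains and act at ribosomes.

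Total counts ran from 70090518 to 241381845 per library, with the lowest at 104405588 in home cage TRAP, 104598915 in run TRAP, 84399875 in home cage lysate and 70090518 in run lysate. Levels are counts scaled to library size by TMM (CPM). They were scaled over all 28 libraries where fractions are set side by side, and for members within a fraction where run and home cage are compared. Summed marker levels were scaled over all 28 libraries throughout. The cell type label reads microglia for lysates too, but the summed level of 8 neuron markers in lysate was 7963 to 16828 CPM and that of 12 microglia markers 483 to 656 CPM. In TRAP the microglia sum was 28113 to 82266 CPM, and Cx3cr1, whose control sequences drive the Cre, exceeded its lysate level by 6.92 ± 0.14 (SE) log2 units. Summed border-associated macrophage markers (8 genes) were 837 to 1762 CPM in TRAP and 15.5 to 26.1 CPM in lysate. In TRAP, summed endothelial markers (10 genes) were 148 to 777 CPM against 36.8 to 117 CPM in lysate, and summed mural markers (10 genes) 58.9 to 288 CPM against 39.3 to 113 CPM. No marker in these lists was at 0 in every library. In such bulk samples fewer cells of a type and less RNA per cell cannot be told apart. Y-linked counts went against the sex in the title in 4 libraries, those of the run mice titled Male1 and Female2 of cohort 2, and results without these 2 mice are given beside those with them. Within a fraction, p-values measure the spread between these mice. Between fractions, the main fit had no term for the mouse, so the TRAP and lysate libraries of a mouse were treated as independent. With the mouse as a block, 37 of 45 tested members were called between fractions, against 12839 of 18016 genes. Astrocyte, oligodendrocyte precursor, fibroblast and choroid plexus markers were called lower in TRAP for 7 of 8, 6 of 6, 2 of 6 and 2 of 6 genes, and none was called higher. Over all genes tested 40.1% were called lower and 33.8% higher.

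Promoter sequences are shown for 3 members that stood far higher in TRAP than in lysate and whose window held a searched motif. The windows are RefSeq's, build GRCm38.p6, from 250 bases before to 50 bases after the annotated start, 300 bases in all, 5′ to 3′ along the gene's strand. A window was found for 38 of the 50 genes. Capitals mark the motif, which stands here as its reverse complement in all 3 sequences.
Abca1: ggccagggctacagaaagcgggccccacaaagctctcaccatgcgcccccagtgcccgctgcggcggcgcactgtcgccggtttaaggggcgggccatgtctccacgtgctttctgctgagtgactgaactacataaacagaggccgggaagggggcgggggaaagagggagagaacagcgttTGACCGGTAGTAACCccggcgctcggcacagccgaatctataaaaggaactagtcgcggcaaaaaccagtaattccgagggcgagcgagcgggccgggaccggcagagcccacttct
Abcb4: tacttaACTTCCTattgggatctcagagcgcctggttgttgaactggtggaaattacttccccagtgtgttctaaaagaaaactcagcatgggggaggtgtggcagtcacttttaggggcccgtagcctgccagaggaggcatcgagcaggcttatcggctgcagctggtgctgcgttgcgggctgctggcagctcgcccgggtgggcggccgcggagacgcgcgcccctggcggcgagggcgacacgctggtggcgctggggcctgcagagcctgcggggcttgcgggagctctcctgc
Abcg3: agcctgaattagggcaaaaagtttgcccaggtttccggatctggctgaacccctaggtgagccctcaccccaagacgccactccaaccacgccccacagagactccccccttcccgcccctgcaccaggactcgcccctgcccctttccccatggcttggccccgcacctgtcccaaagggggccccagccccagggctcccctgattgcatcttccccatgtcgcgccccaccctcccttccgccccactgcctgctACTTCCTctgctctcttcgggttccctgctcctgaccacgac
The Abca1 window lies at chr4:53159846-53160145 on the minus strand, that of Abcb4 at chr5:8893471-8893770 on the plus strand and that of Abcg3 at chr5:104982668-104982967 on the minus strand. In Abca1 the capitals are the element known from the human ABCA1 promoter for liver X receptors (LXR), nuclear receptors that switch on cholesterol export when sterols accumulate. It was searched on both strands, with 1 base of the element left free. Of 32851 promoter windows 2 held it, and Abca1 was the only member among the genes of these windows. In Abcb4 and Abcg3 they are the core AGGAAGT of sites for ETS factors, the family of the microglial regulator PU.1. That core, searched on both strands, was in 3072 windows (9.35%). Among members it was in 4 of 12 genes with a window that were called higher in TRAP (Abca13, Abcb4, Abcg2 and Abcg3) and in 1 of 13 called lower (Abcc10). A GC box (GGGCGG) and an E-box (CACGTG) were also searched. The GC box was in 9 of the 12 and 7 of the 13, and in 35.7% of windows. The E-box was in 3 of the 12 and 2 of the 13, and in 7.15% of windows. A gene was counted when any of its windows held the motif, so gene counts and shares of windows are not on the same scale. A match is a string of letters in the window and was not tested for binding. No window was matched for Abcc3 or Abcg1.

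Of the 50 genes, 48 had a count in at least 1 library. Abca16 and Abcb5 had none in 28 libraries, where a count of 0 allows up to 3 counts, or 0.0124 CPM in the deepest library and 0.0428 CPM in the shallowest. Reads without molecular identifiers are not independent molecules, so these limits cover counting error only. The bile salt export pump gene Abcb11, the conjugate exporter gene Abcc2, Abca15 and the sterol exporter pair Abcg5 and Abcg8 had 15 to 165 counts over all libraries, each in at most 8 libraries. These 7 genes did not pass the filter on low counts, and 43 were tested between fractions.

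The most abundant members differed between the fractions. Levels of different genes are compared only per length, as mean CPM per kb of exons (n = 14 libraries, ± SD). These means pool both cohorts, whose levels differed, and the order was not computed within a cohort. In lysate the cytosolic ATPase genes led, Abcf2 at 31.6 ± 10.1, Abcf3 at 16.6 ± 3.36 and Abce1 at 15.3 ± 6.08 CPM per kb. Abcd3 followed at 11.8 ± 4.21 and Abca2 at 11.0 ± 8.27. Mean lysate levels in cohorts 1 and 2 were 120.4 and 53.7 CPM for Abce1 and 35.5 and 166 CPM for Abca2, so this order need not hold in each cohort. Among the 7 highest levels in TRAP were those of Abcf2 (19.4 ± 8.44), Abcc3 (18.1 ± 10.6), Abcf1 (17.9 ± 7.53), Abca1 (16.2 ± 5.44), Abca9 (16.0 ± 4.49) and Abcg1 (15.2 ± 3.88), and neighbours in this order differed by less than their SD. In lysate Abca1 ranked 21, Abca9 31 and Abcc3 35, with Abcc3 at 0.229 ± 0.175 CPM per kb. With all members' CPM summed, Abca1 took 12.7% in TRAP, Abca9 9.71%, Abcg1 8.35% and Abcc3 7.79%. These are shares of reads not divided by length, in which longer genes weigh more, and they do not rank the genes. Dividing by the longest transcript in place of the exon union moved 10 of 36 members in TRAP and 9 of 35 in lysate by more than 1 SD.

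**Figure D1:**
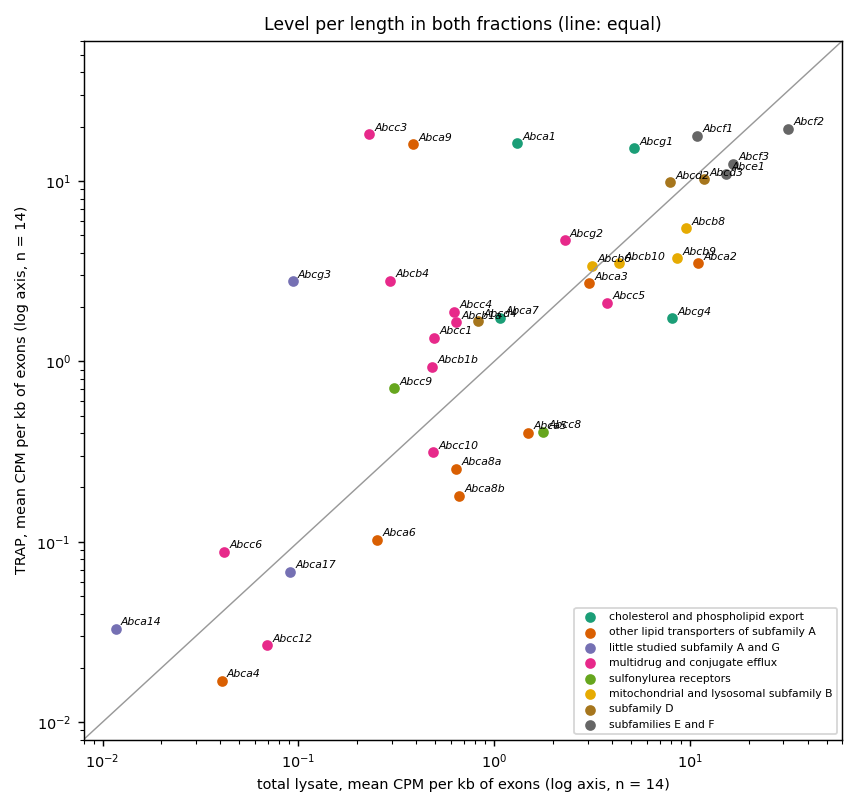
Mean CPM per kb of exons in TRAP (vertical) against total lysate (horizontal), both log axes, n = 14 libraries each, for 39 members with a level of at least 0.01 in both fractions. Colours are role classes and the line marks equal levels. Abcc3, Abca9 and Abca1 stand far above the line at TRAP levels of 16.0 to 18.1, and Abcg4, Abca2 and Abcc8 below it.

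Set against lysate, the microglial TRAP fraction held more mRNA of 18 ABC transporters and less of 17, while 8 did not pass the test (edgeR quasi-likelihood test, 28 libraries, Benjamini-Hochberg adjusted p under 0.05). Over all 16880 genes tested, 73.9% were called, 33.8% higher and 40.1% lower. Called genes thus made up 35 of the 43 members, and without the 2 mice whose Y-linked counts went against the title the counts were again 18 higher and 17 lower. Without these mice 5361 of 17163 genes were called higher and 6885 lower. The median log2 fold of the 43 members was 0.02, with 22 above 0 and 21 below, against -0.21 over all genes tested, and with DESeq2's size factors the members' median was -0.01. Among the 35 members with a mean of at least 1 CPM, the lowest library of the higher fraction lay above the highest of the other for 8. Among them were Abca1, Abcg1, Abca9, Abcg3, Abcb4 and Abcc3, higher in TRAP, and Abcg4, lower. Over all genes at that level the share was 19.6%, 14.2% higher and 5.34% lower.

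**Figure D2:**
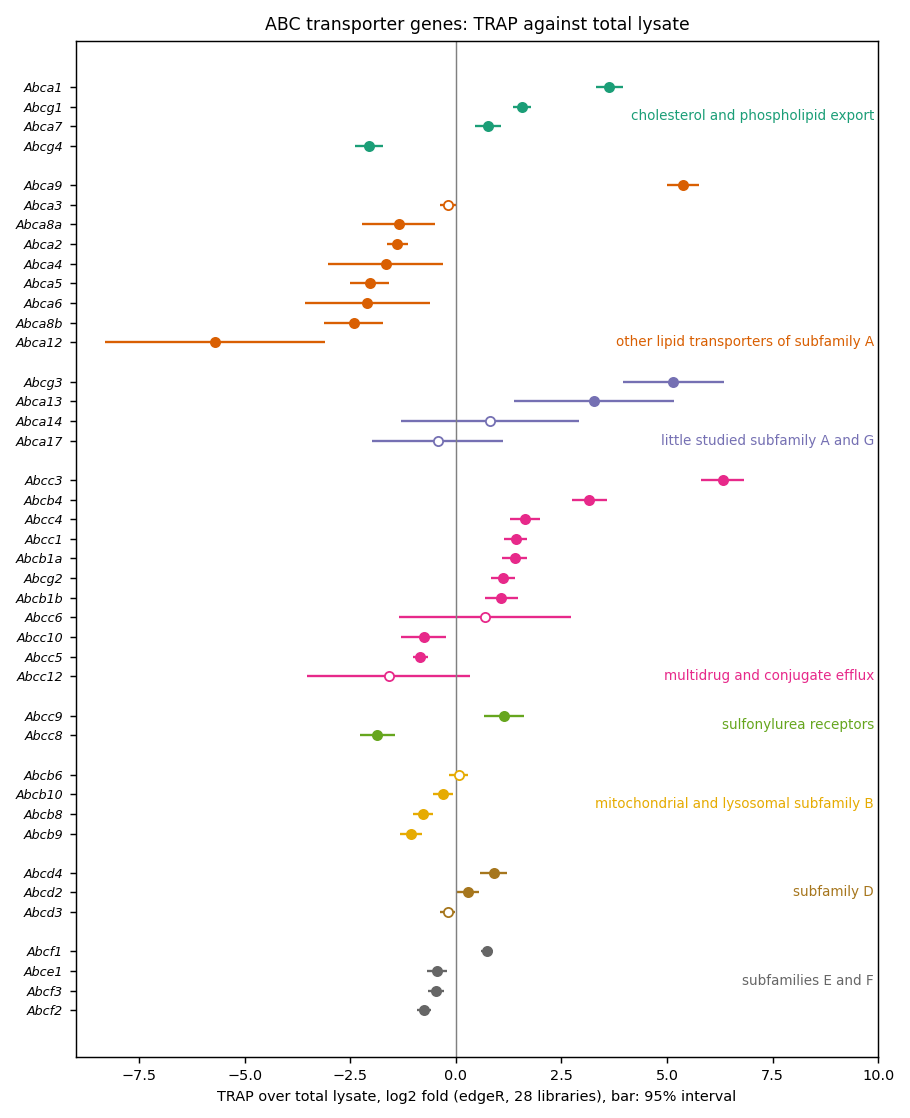
TRAP over total lysate on the log2 scale for 41 tested members, by role class, from the edgeR fit over 28 libraries; bars are 95% intervals, filled points passed the adjusted threshold and open points did not. The values run from -5.69 for Abca12 to 6.31 for Abcc3, and the other lipid transporters of subfamily A lie below 0 except Abca9.

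Among the cholesterol and phospholipid exporters, Abca1, Abcg1 and Abca7 were higher in TRAP and Abcg4 lower, and Abcg5 and Abcg8 were not tested. Abca1 (chromosome 4, 53030787 to 53159895, minus strand) encodes the transporter that hands cholesterol and phospholipid to lipid-poor apolipoproteins. Its level had a lowest, median and highest value of 99.3, 153 and 253 CPM in home cage TRAP and 73.2, 182 and 275 CPM in run TRAP. In lysate the values were 10.9, 13.2 and 21.1 CPM in the home cage and 8.59, 10.6 and 19.4 CPM after the run. Every TRAP library lay above every lysate library, and the log2 fold was 3.64 ± 0.15 (SE, edgeR adjusted p = 2.35e-19), or 12.4-fold. Abcg1 (chromosome 17, 31057675 to 31117988, plus strand), which passes sterol on to particles that already hold lipid, was at 70.2, 120 and 158 CPM in home cage TRAP and 77.6, 92.9 and 137 CPM in run TRAP. Its lysate values were 16.8, 34.9 and 47.5 CPM and 25.6, 43.1 and 55.0 CPM. All TRAP libraries were again higher, by 1.56 ± 0.10 on the log2 scale (edgeR adjusted p = 2.50e-14), a smaller fold on a higher lysate level. Abca7, a close relative of Abca1, overlapped between the fractions at 2.93 to 23.0 CPM in TRAP and 1.98 to 14.9 CPM in lysate, with TRAP higher in 13 of 14 mice and a log2 fold of 0.76 ± 0.15 (edgeR adjusted p = 3.92e-05). Abcg4, the relative of Abcg1 found mainly in neural cells, was at 4.59, 7.37 and 12.6 CPM in home cage TRAP and 5.25, 7.85 and 14.4 CPM in run TRAP, against 21.2, 25.4 and 78.4 CPM and 17.6, 31.6 and 72.1 CPM in lysate. No TRAP library reached a lysate library, and the log2 fold was -2.06 ± 0.16 (edgeR adjusted p = 9.38e-13).

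Genes around cholesterol export were counted from a list of 24, of which 15 were higher in TRAP and 6 lower, with a median log2 fold of 1.15. Over all genes tested the shares were 33.8% higher and 40.1% lower. Apoe, the main lipid acceptor in brain, was 1.84 ± 0.12 higher, the lysosomal cholesterol transfer genes Npc2 and Npc1 3.67 ± 0.08 and 2.59 ± 0.09 higher, and Lpcat3, a phospholipid remodelling enzyme, 3.02 ± 0.09 higher. Of the LXR genes, Nr1h2 was 0.92 ± 0.11 higher and Nr1h3, at 0.35 ± 0.21, was not called. Cyp46a1, the neuronal cholesterol hydroxylase, was lower, at -1.60 ± 0.11. Summed neuron markers were lower in TRAP, at 1914 to 8268 CPM, than in lysate, at 7963 to 16828 CPM, which is the direction of Abcg4, and the part of neuronal RNA in that result was not tested.

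The other lipid transporters of subfamily A were mostly lower in TRAP, 7 of 9, with Abca9 the only member of the class called higher. Among all genes tested, 40.1% were called lower and 33.8% higher. Abca9, whose substrate is little studied, was at 99.3, 118 and 202 CPM in home cage TRAP and 62.8, 135 and 170 CPM in run TRAP. In lysate it was at 2.27, 2.95 and 5.55 CPM in the home cage and 1.17, 2.83 and 3.94 CPM after the run. The lowest TRAP library was thus far above the highest lysate library, and the log2 fold was 5.38 ± 0.19 (edgeR adjusted p = 1.57e-21), or 41.6-fold. Abca9 lies on chromosome 11 from 110100749 to 110168196 in a row of 5 subfamily A genes on the minus strand, between Abca8a and Abca6, with Abca8b and Abca5 at the ends of the stretch from 109932190 to 110337716. The other members of that row were called lower, Abca8b at -2.42 ± 0.34, Abca6 at -2.10 ± 0.72, Abca5 at -2.04 ± 0.23 and Abca8a at -1.35 ± 0.42 on the log2 scale. Abca5, a lysosomal transporter, was at 0.792 to 11.1 CPM in TRAP and 6.09 to 32.7 CPM in lysate, and TRAP was lower in 14 of 14 mice. Abca6 was low in both fractions, at up to 3.47 CPM in TRAP and 3.12 CPM in lysate, with 0 counts in 5 of 14 TRAP libraries.

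Abca2, an endosomal and lysosomal transporter abundant in oligodendrocytes, was at 14.6, 22.9 and 44.1 CPM in home cage TRAP and 18.0, 19.0 and 56.1 CPM in run TRAP. Its lysate values were 22.4, 42.3 and 179 CPM and 33.5, 43.8 and 198 CPM. The ranges overlapped across mice, but TRAP was lower in 14 of 14 mice, by -1.38 ± 0.13 on the log2 scale (edgeR adjusted p = 2.74e-11). Summed oligodendrocyte markers were 1216 to 2630 CPM in TRAP and 3786 to 5774 CPM in lysate, and their part in the result was not tested. Abca4, the retinoid transporter of photoreceptors, was lower, at -1.66 ± 0.66 at a highest level of 1.17 CPM. Abca12, a keratinocyte lipid transporter, had counts in 1 of 14 TRAP libraries (32 counts) and in 13 of 14 lysate libraries, so its fitted fold of -5.69 depends on the prior count. Abca3, known for surfactant lipid, was at -0.18 ± 0.09 and not called.

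Among the little studied members of subfamilies A and G, Abcg3 and Abca13 were called higher, while Abca14 (0.80 ± 1.03) and Abca17 (-0.43 ± 0.76) were not called. Abcg3 (chromosome 5, 104935057 to 104982718, minus strand), a rodent relative of Abcg2, was at 4.97, 9.57 and 18.3 CPM in home cage TRAP and 4.53, 9.66 and 13.1 CPM in run TRAP. In lysate it was at 0, 0.169 and 0.511 CPM in the home cage and 0, 0.113 and 2.05 CPM after the run, with 0 counts in 3 of 14 libraries. The fractions did not overlap, and the fitted log2 fold was 5.15 ± 0.59 (edgeR adjusted p = 3.62e-09). Abca13 was higher by 3.26 ± 0.93 (edgeR adjusted p = 0.00241), from 0 to 3.91 CPM in TRAP and 0 to 0.822 CPM in lysate, where 6 libraries had no count.

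Drug and conjugate efflux pumps were called higher in TRAP for 7 of 11 tested members and lower for 2, with a median log2 fold of 1.12. Among all genes tested, 33.8% were called higher and 40.1% lower. The largest difference of all 43 members was that of Abcc3 (chromosome 11, 94343295 to 94392997, minus strand), which exports glucuronides and other organic anions. It was at 37.3, 60.7 and 183 CPM in home cage TRAP and 36.6, 65.1 and 196 CPM in run TRAP, against 0.165, 0.964 and 4.00 CPM and 0.378, 1.26 and 2.12 CPM in lysate. No library overlapped between the fractions, and the log2 fold was 6.31 ± 0.24 (edgeR adjusted p = 2.33e-20), or 79.5-fold. Abcb4 (chromosome 5, 8893717 to 8959231, plus strand), known as the phosphatidylcholine floppase of bile canaliculi, was at 12.4, 27.2 and 41.3 CPM in home cage TRAP and 7.82, 22.5 and 35.8 CPM in run TRAP. In lysate its values were 1.70, 2.53 and 5.01 CPM and 1.16, 2.68 and 3.42 CPM. These did not overlap with TRAP either, and the log2 fold was 3.16 ± 0.20 (edgeR adjusted p = 9.11e-15), or 8.96-fold.

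The pumps known from the blood-brain barrier were higher in TRAP by a smaller fold. Abcb1a (chromosome 5, 8660077 to 8748575, plus strand), the main P-glycoprotein gene of mouse brain endothelium, was at 4.63, 7.71 and 14.7 CPM in home cage TRAP and 6.15, 9.82 and 11.8 CPM in run TRAP. In lysate it was at 3.52, 3.99 and 4.89 CPM and 1.65, 3.05 and 3.75 CPM. The ranges overlapped slightly, TRAP was higher in 14 of 14 mice, and the log2 fold was 1.39 ± 0.14 (edgeR adjusted p = 5.83e-10), or 2.62-fold. Abcg2 (chromosome 6, 58584523 to 58695676, plus strand), the other main drug pump of that barrier, was at 32.5, 43.6 and 51.7 CPM in home cage TRAP and 19.1, 39.0 and 49.5 CPM in run TRAP. Its lysate values were 9.94, 17.3 and 27.7 CPM and 9.20, 19.3 and 29.6 CPM. It was higher in TRAP in 14 of 14 mice, by 1.12 ± 0.14 on the log2 scale (edgeR adjusted p = 2.67e-08), or 2.17-fold. Abcb1b, the second P-glycoprotein gene, shares 18.0% of the 50-base windows of its longest transcript with Abcb1a, so that reads could be split or lost between them. It was higher by 1.08 ± 0.19 (edgeR adjusted p = 8.42e-06) and in 13 of 14 mice. Abcc4, which exports cyclic nucleotides and prostaglandins, was higher by 1.64 ± 0.17 (13 of 14 mice), and Abcc1, an exporter of glutathione conjugates, by 1.42 ± 0.14 (14 of 14 mice).

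Markers of endothelium were higher in TRAP too, where 33.8% of all genes tested were called higher. All 10 endothelial markers were called higher in TRAP, with a median log2 fold of 1.92 and Pecam1 at 3.02 ± 0.16. Of 12 solute transporters of the barrier, 10 were called higher and 0 were called lower (median 1.20), among them the taurine transporter Slc6a6 (2.07 ± 0.09) and the amino acid transporter subunit Slc3a2 (1.61 ± 0.08). Between cohorts 1 and 2, summed endothelial markers had medians of 208 and 602 CPM in TRAP and 48.8 and 103 CPM in lysate. Mean TRAP levels in these cohorts were 8.37 and 9.89 CPM for Abcb1a and 8.32 and 6.28 CPM for Abcb1b. They were 42.7 and 32.4 CPM for Abcg2 and 10.1 and 14.7 CPM for Abcc4. The part of endothelial RNA in the levels of Abcb1a, Abcb1b, Abcg2 and Abcc4 in TRAP was not tested. Abcc5 and Abcc10, further organic anion pumps, were lower, at -0.84 ± 0.08 and -0.76 ± 0.26 on the log2 scale. Abcc6 (0.69 ± 1.00) and Abcc12 (-1.59 ± 0.95) had too few counts for a narrow interval and were not called.

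The sulfonylurea receptors went in opposite directions. Abcc9 (chromosome 6, 142587862 to 142702315, minus strand), the receptor of mural cell and muscle channels, was at 1.67, 6.34 and 11.1 CPM in home cage TRAP and 2.39, 3.91 and 10.5 CPM in run TRAP. In lysate it was at 0.956, 2.85 and 3.24 CPM and 1.26, 2.70 and 4.22 CPM. The ranges overlapped, TRAP was higher in 11 of 14 mice, and the log2 fold was 1.14 ± 0.24 (edgeR adjusted p = 8.26e-05), or 2.20-fold. Within cohorts it was 1.46 ± 0.31 in cohort 1 (edgeR adjusted p = 0.000419) and 0.71 ± 0.32 in cohort 2, where it did not pass the test (edgeR adjusted p = 0.0632). Kcnj8, the channel pore that pairs with Abcc9, was higher by 0.79 ± 0.22, at 0.30 ± 0.25 in cohort 1 and 1.44 ± 0.30 in cohort 2. As cohort 2 minus cohort 1, the Abcc9 fold differed by -0.75, which was not called. That of Kcnj8 differed by 1.14 ± 0.39, which was called (edgeR adjusted p = 0.0375). Of 10 mural markers (median 0.41) 4 were called higher and 1 was called lower, against 33.8% and 40.1% of all genes tested. Pdgfrb, at -0.17 ± 0.23, was not called. Summed mural markers in cohorts 1 and 2 had medians of 68.1 and 242 CPM in TRAP and 46.5 and 102 CPM in lysate. Mean levels of Abcc9 in these cohorts were 7.43 and 3.98 CPM in TRAP and 2.71 and 2.41 CPM in lysate, with overlapping libraries. The part of mural RNA in the Abcc9 difference was not tested. Abcc8 (chromosome 7, 46104523 to 46180033, minus strand), the receptor of neuronal and beta cell channels, was at 0.708, 2.94 and 4.64 CPM in home cage TRAP and 1.73, 3.01 and 6.79 CPM in run TRAP, against 4.38, 7.24 and 31.0 CPM and 5.54, 7.10 and 28.2 CPM in lysate. TRAP was lower in 14 of 14 mice, by -1.86 ± 0.20 on the log2 scale (edgeR adjusted p = 1.46e-09). Its pore Kcnj11 was at -0.20 ± 0.17 over both cohorts and not called, with 0.43 ± 0.15 in cohort 1 and -1.05 ± 0.15 in cohort 2. The cohort difference of Kcnj11, -1.48 ± 0.21, was called (edgeR adjusted p = 1.62e-05). An antisense transcript with its own line in the count table overlaps 158 of the 8373 exonic bases of Abcc9. Without a known strand setting, reads within these shared bases cannot be assigned to either gene.

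**Figure D3:**
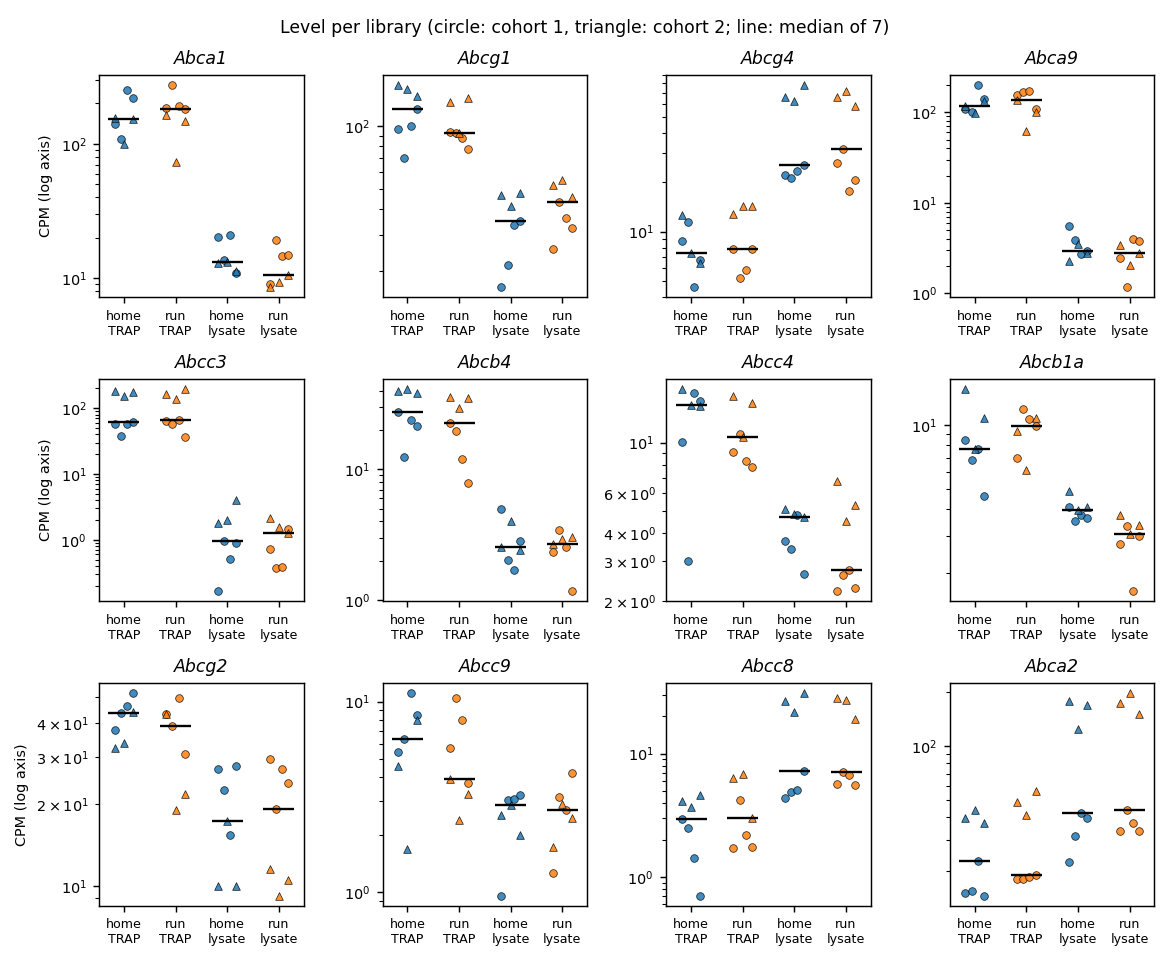
CPM (log axis, scaled over 28 libraries) of 12 members in each library, by condition and fraction; circles are cohort 1, triangles cohort 2, lines the median of 7 libraries. TRAP lies above lysate without overlap for Abca1, Abcg1, Abca9, Abcc3 and Abcb4 and below it for Abcg4, and the 6 cohort 2 lysates of Abcc8 and Abca2 lie above the 8 of cohort 1.

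The subfamily B transporters of mitochondria and lysosomes held 3 members that were lower in TRAP. Abcb9, a lysosomal peptide transporter, was lower, at -1.06 ± 0.13, mitochondrial Abcb8 at -0.77 ± 0.12 and Abcb10, which serves haem synthesis, at -0.30 ± 0.11. Abcb6, a porphyrin transporter, was at 0.07 ± 0.11 and not called. Of 14 genes of haem and iron-sulphur cluster synthesis (median 0.22), 7 were called higher and 3 were called lower. Over all genes tested 33.8% were called higher and 40.1% lower. The reads of Abcb6 are uncertain, because a transcript annotated on the same strand shares 66.8% of its 50-base windows and has no line of its own in the count table. Set beside Abcb9, the peptide transporter genes of antigen presentation Tap1 and Tap2, relatives of subfamily B, were higher by 4.49 ± 0.19 and 3.65 ± 0.13, as were all 8 genes of the peptide loading list (median 3.37).

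In subfamily D, whose members take fatty acids into peroxisomes or cobalamin out of lysosomes, Abcd2 and Abcd4 were called higher in TRAP and Abcd3 was not called. Abcd2, a peroxisomal fatty acid transporter, was at 29.6, 61.3 and 100.4 CPM in home cage TRAP and 23.3, 52.5 and 76.7 CPM in run TRAP. In lysate it was at 31.0, 47.7 and 63.1 CPM in the home cage and 33.9, 49.5 and 60.8 CPM after the run. The ranges overlapped, and the log2 fold of 0.29 ± 0.13 (edgeR adjusted p = 0.0409) was not called with DESeq2 (0.25) or limma-voom (0.23). In home cage libraries alone it was 0.46 ± 0.19 (edgeR adjusted p = 0.0417) and in run libraries alone 0.04 ± 0.16 (edgeR adjusted p = 0.824), a difference of -0.33 ± 0.25 that was not called (edgeR adjusted p = 1). Abcd3, the most abundant peroxisomal membrane transporter, was at -0.19 ± 0.09 and not called, and TRAP was lower in 10 of 14 mice. Abcd4, a lysosomal cobalamin transporter, was at 5.15, 10.3 and 23.7 CPM in home cage TRAP and 3.75, 8.90 and 29.8 CPM in run TRAP, against 3.61, 5.47 and 12.5 CPM and 1.80, 4.56 and 11.0 CPM in lysate. The ranges overlapped, TRAP was higher in 12 of 14 mice, and the log2 fold was 0.90 ± 0.16 (edgeR adjusted p = 6.24e-06). Of 11 genes of peroxisome import and beta-oxidation (median 0.39), 5 were called higher and 3 were called lower, against 33.8% and 40.1% of all genes tested.

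Of the soluble members, Abcf1, a factor of translation initiation, was higher in TRAP by 0.75 ± 0.07 (14 of 14 mice). Abcf2 was lower, at -0.75 ± 0.08, Abcf3 at -0.47 ± 0.09 and Abce1, which splits ribosomes after termination, at -0.44 ± 0.11. In a list of 10 genes of ribosome rescue, termination and amino acid sensing, 8 were tested, of which 4 were higher and 2 lower (median 0.14). Over all genes tested the shares were 33.8% and 40.1%.

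The run changed no ABC transporter past the threshold in either fraction. In TRAP 0 of 41 tested members were called (edgeR quasi-likelihood test, 14 libraries, cohort as a covariate), with 1 at an unadjusted p under 0.05, against 6 of 15644 genes (0.0384%) called. In lysate 0 of 43 were called, with 2 at an unadjusted p under 0.05, against 5 of 16522 genes (0.0303%). DESeq2 and limma-voom called 0 members in both fractions too. The median log2 fold of members was -0.05 in TRAP and -0.02 in lysate, against 0.00 over all genes in each. Fold changes between TRAP and lysate that depend on the run, tested as an interaction, were called for 0 of 43 members and for 0.0% of 16880 genes, with 3 members at an unadjusted p under 0.05 (Abca8b, Abca12 and Abcg1). The same counts of 0 were found without the 2 mice whose Y-linked counts went against the title.

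**Figure D4:**
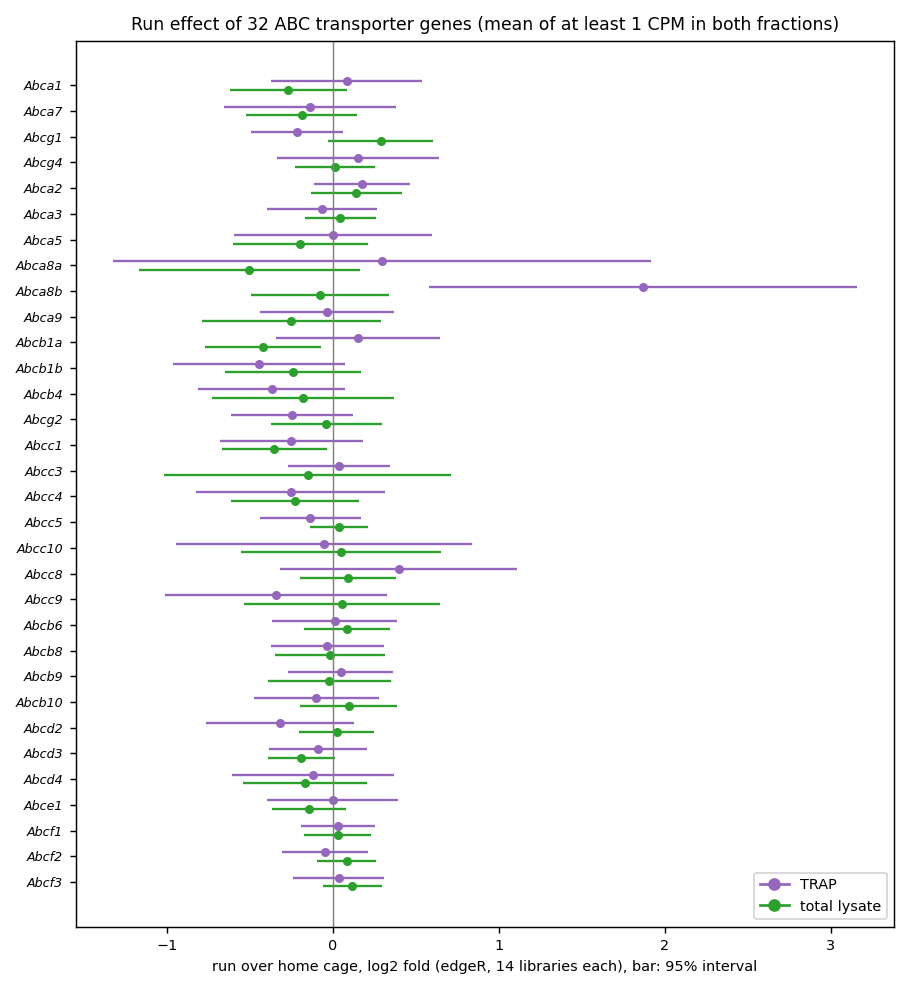
Run over home cage on the log2 scale in TRAP (purple) and total lysate (green) for 32 members with a mean of at least 1 CPM in both fractions, from edgeR fits of 14 libraries each with cohort as covariate; bars are 95% intervals. Most intervals cross 0, the widest departure is Abca8b in TRAP at 1.87, and no value passed the adjusted threshold.

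For the lipid exporters the values are given with 95% intervals. Abca1 was at 84.1, 127 and 226 CPM in home cage TRAP and 61.0, 150.4 and 242 CPM in run TRAP, scaled within the fraction. The ranges overlapped almost fully, and the log2 fold was 0.08 with an interval of -0.37 to 0.54. In lysate it was -0.27 (-0.62 to 0.08). Abcg1 had a log2 fold of -0.22 (-0.49 to 0.06) in TRAP and 0.29 (-0.03 to 0.61) in lysate. The difference of these effects was -0.49 ± 0.20 (edgeR adjusted p = 1), so the opposite signs did not pass the test. Abca9 was at -0.04 (-0.44 to 0.37) in TRAP and Abcc3 at 0.04 (-0.27 to 0.35). The intervals of both genes lie between -0.44 and 0.37 on the log2 scale.

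Among efflux pumps the median log2 fold after the run was -0.25 in TRAP and -0.18 in lysate, with 0 of 11 called in each. Abcb1a in lysate had the lowest unadjusted p, at 4.20, 4.69 and 5.76 CPM in the home cage and 2.00, 3.63 and 4.45 CPM after the run. The ranges overlapped slightly, and the log2 fold was -0.42 (-0.77 to -0.07, edgeR adjusted p = 0.655). Abcc1 in lysate was at -0.35 (-0.67 to -0.04, edgeR adjusted p = 0.669). In TRAP Abcb1a was at 0.15 (-0.35 to 0.64), Abcb1b at -0.44 (-0.96 to 0.07), Abcg2 at -0.25 (-0.61 to 0.12) and Abcb4 at -0.37 (-0.81 to 0.07). Summed endothelial markers did not overlap between cohorts and are given by cohort, scaled over all 28 libraries. Their medians in home cage and run TRAP were 258 and 193 CPM in cohort 1 and 612 and 591 CPM in cohort 2. In lysate these medians were 53.4 and 44.8 CPM in cohort 1 and 103 and 102 CPM in cohort 2. The 10 markers had a median log2 fold of -0.33 in TRAP and -0.29 in lysate, with 0 called, and their part in the pumps' values was not tested. Abcc9 was at -0.34 (-1.01 to 0.33) in TRAP and 0.05 (-0.54 to 0.65) in lysate. Summed mural markers, also scaled over all 28 libraries, had TRAP medians in cohort 1 of 93.1 CPM in the home cage and 64.5 CPM after the run. In cohort 2 the mural medians were 240 and 243 CPM.

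Abca8b in TRAP had the lowest unadjusted p of any member in the run comparisons. It was at 0.0639, 0.292 and 1.47 CPM in the home cage and 0.303, 0.887 and 4.41 CPM after the run, with overlap. The log2 fold was 1.87 ± 0.62 (0.58 to 3.16, edgeR adjusted p = 0.999), on a mean of 0.520 and 1.73 CPM. In lysate, where the gene was near 6 CPM (mean 6.05 in the home cage and 5.71 after the run), the fold was -0.08 (-0.49 to 0.34). An antisense transcript that is not in the count table shares 241 exonic bases with Abca8b.

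The run effect was also read within each cohort. Whether it differed between cohorts was called for 0 of 42 members in TRAP and 0 of 44 in lysate, with 0 and 2 at an unadjusted p under 0.05, and for 0.0% of genes in both fractions. Abca1 in TRAP was at 0.22 ± 0.25 in cohort 1 and -0.10 ± 0.29 in cohort 2, and Abcg1 at -0.12 ± 0.16 and -0.34 ± 0.19. Abcb1a in TRAP was at 0.52 ± 0.27 in cohort 1 and -0.36 ± 0.32 in cohort 2, opposite in sign, with a difference of -0.89 ± 0.43 (edgeR adjusted p = 0.867). In lysate Abcb1a was at -0.49 ± 0.28 and -0.36 ± 0.17, the same sign in both cohorts. Abca8b in TRAP was at 1.63 ± 0.79 and 2.14 ± 1.07. Abcc9 in TRAP was at -0.16 ± 0.35 and -0.59 ± 0.50.

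TRAP over lysate was also read within each cohort. In cohorts 1 and 2 the log2 fold came to 3.65 ± 0.21 and 3.62 ± 0.20 for Abca1, 5.46 ± 0.26 and 5.28 ± 0.22 for Abca9, 6.31 ± 0.36 and 6.36 ± 0.24 for Abcc3, and 1.61 ± 0.16 and 1.50 ± 0.12 for Abcg1. For Abcb4 it was 2.80 ± 0.29 and 3.66 ± 0.15, a difference of 0.85 ± 0.35 that missed the threshold (edgeR adjusted p = 0.0850). Tested as cohort 2 minus cohort 1, the fold differed for 6 of 43 members, 3 higher and 3 lower, against 19.7% of 17092 genes, 8.05% higher and 11.7% lower. With DESeq2's size factors the split was 5 higher and 2 lower, against 1714 higher and 1675 lower of 17092 genes. The fold of Abca2 was -1.001 in cohort 1 and -1.89 in cohort 2, that of Abcg4 -1.69 and -2.59, and that of Abcc8 -1.43 and -2.42, while Abcf3 moved from -0.69 to -0.18 and Abcb1b from 0.65 to 1.66. Abca12, the sixth, had TRAP counts in 1 library. The barrier pump Abcg2, at 0.83 and 1.52, missed the threshold (edgeR adjusted p = 0.0533), and Abcb1a was at 1.38 in both. Without the 2 mice whose Y-linked counts went against the title, 3 members were called, 1 higher and 2 lower. Calls over all genes fell as well, to 1931 of 17468, with 610 higher and 1321 lower. In TRAP the summed endothelial markers were 148 to 318 CPM in cohort 1 and 569 to 777 CPM in cohort 2, and the neuron markers 4685 to 8268 CPM and 1914 to 2597 CPM. In lysate the summed endothelial markers rose too, from 36.8 to 64.7 CPM in cohort 1 to 90.8 to 117 CPM in cohort 2. Esam was the only endothelial marker whose TRAP over lysate fold was called different between cohorts (1.25 ± 0.25). Their part in the cohort differences was not tested.

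Levels of the ABC transporters themselves differed between cohorts along the GC content of their transcripts. In lysate, all 6 libraries of cohort 2 lay above all 8 of cohort 1 for 17 of 35 members with a mean of at least 1 CPM, and below them for 5. Over all genes at that level 57.2% stood apart, 32.3% higher and 24.9% lower. The 17 higher members had a median GC content of 55.2% in the longest transcript, the 5 lower, among them Abca5, Abcb1b, Abcd3 and Abce1, one of 40.3%. Abca2 (GC 57.5%) had a mean of 166 CPM in cohort 2 and 35.5 CPM in cohort 1, and Abce1 (GC 40.3%) 53.7 and 120.4 CPM. Across the 35 members the log2 level difference and GC content had a Pearson's r of 0.93 and a Spearman's rho of 0.92. In TRAP 14 of 36 members stood higher and 2 lower, against 46.5% of genes (25.6% higher and 20.9% lower), with r = 0.87 and rho = 0.84. These correlations are across genes of the same libraries, which are not independent replicates. Both conditions have 4 and 3 mice of the cohorts and each mouse gave both fractions, so cohort is balanced in the comparisons above.

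**Figure D5:**
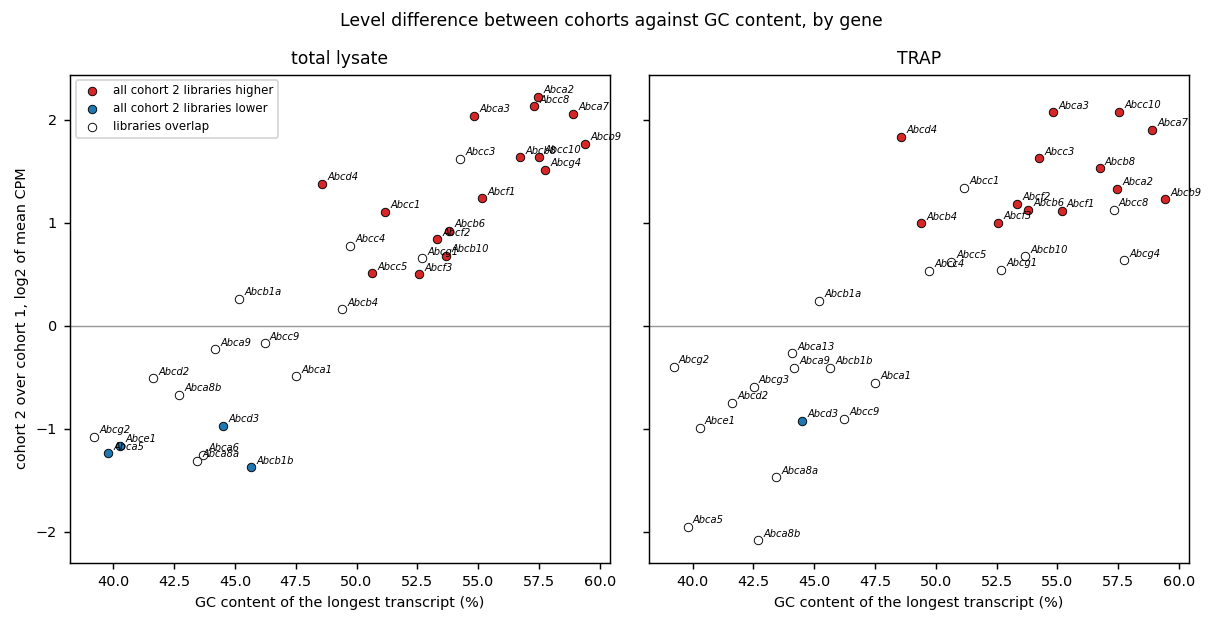
Log2 ratio of mean CPM in cohort 2 over cohort 1 against the GC content of each member's longest transcript, in total lysate (33 members) and TRAP (34 members), with red or blue where no library overlapped between cohorts. The points rise with GC content in both fractions, from -1.38 for Abcb1b to 2.23 for Abca2 in lysate.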

How the data were processed

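The authors deposited raw read counts, whole numbers per gene symbol, in a table of 24391 symbols and 28 libraries. Per the labels' protocols, polyA RNA was isolated with an RNeasy kit and libraries were made with Nextera XT. The submitters' processing notes list, without saying how each was used, STAR 2.7.7a, featureCounts, DESeq2 and GRCm38. Annotation, strand setting and treatment of multi-mapped reads were not stated. Columns without a cohort mark were taken as cohort 1. Counts were tested with edgeR 4.0.16 quasi-likelihood tests (R 4.3.3, TMM, filterByExpr, Benjamini-Hochberg over all genes at 0.05), with cohort as a covariate and all 28 libraries between fractions or 14 within a fraction. The fits were tested on counts simulated with planted changes but without cohort or mouse differences, so their recovery in the real libraries is not known from that test. DESeq2 1.42.0, limma-voom (limma 3.58.1), other scaling, no filter, a replicate block and left-out mice were alternatives. Every member may be named, though some are not reported here and not plotted, and from gene lists up to 3 called genes a direction with the smallest p, plus 10 set genes. Members, lists and roles were chosen with earlier results of these data known. Positions, exon lengths and overlaps come from GENCODE on GRCm38 and promoters from RefSeq. No libraries of a group were duplicates (lowest chi-square per degree of freedom 69.6 over 84 pairs). TRAP and lysate of a mouse are paired by title; deviations of the paired libraries correlated between -0.04 and 0.09, and 9 of 14 lysates correlated best with their own TRAP library. Depth, 70090518 to 241381845 counts, puts 3 counts at 0.0124 to 0.0428 CPM.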

Additional observations from a re-analysis of the deposited data

Results flagged for a closer look

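Of 110 groups of 7 libraries with a mean of at least 5 CPM, 2 held a library far from the others, where chance gives about 1 in 20 groups. Abca8b was at 10.0 CPM in the home cage lysate of Female2 of cohort 1, with the other 6 libraries at 3.41 to 5.17 CPM. Abca9 was at 202 CPM in the home cage TRAP library of Male1 of cohort 1, with the others at 99.3 to 140 CPM.

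The TRAP over lysate difference was not the same in the cohorts for 6 members, by the edgeR test of cohort 2 minus cohort 1 on the log2 scale. Abca2, the oligodendrocyte-rich lipid transporter, differed by -0.89 ± 0.18 (edgeR adjusted p = 0.000978), Abcg4 by -0.89 ± 0.27 (0.0181) and that of Abcc8 fell by 1.00 ± 0.35 (0.0421). Abcf3 differed by 0.50 ± 0.15 (0.0177) and Abcb1b by 1.00 ± 0.33 (0.0307). Abca12 differed by 6.54 ± 2.07 (0.0304), which rests on TRAP counts in 1 library.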

How the results depend on the processing

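Between fractions, 29 to 37 members were called over the 25 alternatives, and 34 to 36 when a mouse was left out. No member changed direction among called values. The replicate block by mouse called 37 (17 higher, 20 lower), DESeq2 36, and each cohort alone, or all libraries without the cohort term, 29. Over all genes the block called 12839 of 18016 and DESeq2 12808 of 16880. Cohort 1 alone called 10568 of 16543 genes, cohort 2 alone 11861 of 17109 and the fit without the cohort term 10407 of 16716. Calls of Abca4, Abca6, Abca7, Abca8a, Abca12, Abca13, Abcb10, Abcc9, Abcc10, Abcd2, Abce1 and Abcf3 were lost in at least 1 alternative. Leaving out run mouse Male1 of cohort 1 lost Abcb10 (-0.25), and home cage mouse Female1 of cohort 1 Abca4 (-1.45). Abcd2 was lost (0.21 to 0.29) without each of 8 mice: home cage Female2, Male1 and Male2 and run Female1, Female2 and Male1 of cohort 1, and home cage Male1 and run Female1 of cohort 2. Abcd3 was gained without each of 5 mice (-0.25 to -0.21) and Abca3 without each of 3 (-0.24 to -0.19). Abcc12 was gained without home cage mouse Male1 of cohort 1 (-2.26) and Abcc6 without run mouse Female1 of cohort 1 (1.99). Abca12 reached -8.19 without home cage mouse Male1 of cohort 2, and Abca13 3.86 without home cage mouse Male1 of cohort 1. The number of cohort differences was 7 with DESeq2's size factors and 3 without the 2 run mice of cohort 2 titled Male1 and Female2. Over all genes these fits called 3389 of 17092 and 1931 of 17468. The cause was not tested. The run and interaction counts were 0 in every alternative, the replicate block included. Run and home cage mice share title numbers only (correlations -0.18 to 0.04). Levels under about 1 CPM rest on few counts, and their intervals are wide.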
